A study of Mus musculus with 2 samples.

Results

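Of the 13341 peaks in the deposited series-level NANOG peak list on mouse genome build mm9, 287 lay near the start of a noncoding RNA gene and away from every protein-coding start. A peak was taken when its midpoint was within 5 kb of the 5' end of a lincRNA, antisense, processed_transcript or miRNA gene of the mm9 GENCODE annotation and more than 5 kb from the 5' end of every protein-coding gene. Before the coding starts were considered, 393 peaks qualified, and 106 of them were then set aside for a coding start in the same distance. The rule used positions only and no measured value.

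The peaks come from chromatin immunoprecipitation followed by sequencing (ChIP-seq) of NANOG, a homeodomain protein that helps to keep embryonic stem cells undifferentiated. The study had 1 group of 2 biological replicates of E14TG2a.4, a male embryonic stem cell line of mouse strain 129/Ola, with an age of 3.5 days in the labels. Neither a treatment nor an altered genotype is labelled, so no conditions were compared, and the values below stand beside those of all series-level peaks. All material was from 1 line and 1 antibody target, and read depth per replicate is unknown.

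Long intergenic noncoding RNAs (lincRNAs) and antisense transcripts are transcribed and usually spliced like messenger RNAs but are not translated into a known protein, and some of them act in the nucleus on chromatin or on neighbouring genes. MicroRNAs (miRNAs) are cut from longer primary transcripts and lower the stability and translation of messenger RNAs that pair with their seed, bases 2 to 8 of the mature RNA. The Mir290 cluster (miR-290 to miR-295) and the Mir302 cluster (miR-302a to miR-302d and miR-367) are the miRNA clusters best known from pluripotent mouse cells, where their shared seed family acts on cell cycle regulators, whereas let-7 miRNAs are known from differentiated cells and miR-9 and miR-124 from neurons. A peak shows where chromatin was enriched with the NANOG antibody and does not show whether the RNA nearby was made.

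The mature miRNAs beside these peaks carry few seeds in common, and those of the clusters and of the miRNAs described below are shown for comparison. Sequences are from RefSeq (build GRCm38.p6), written 5' to 3', with the seed in capitals.
mmu-miR-302b-3p: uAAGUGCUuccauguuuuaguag
mmu-miR-302d-3p: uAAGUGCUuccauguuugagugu
mmu-miR-291a-3p: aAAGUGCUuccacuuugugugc
mmu-miR-294-3p: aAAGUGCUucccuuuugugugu
mmu-miR-295-3p: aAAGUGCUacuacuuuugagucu
mmu-miR-290a-3p: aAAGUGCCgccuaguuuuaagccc
mmu-miR-367-3p: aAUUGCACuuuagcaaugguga
mmu-miR-363-3p: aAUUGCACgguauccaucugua
mmu-miR-92a-3p: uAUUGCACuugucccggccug
mmu-miR-106a-5p: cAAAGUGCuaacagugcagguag
mmu-miR-20b-5p: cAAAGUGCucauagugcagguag
mmu-miR-9-5p: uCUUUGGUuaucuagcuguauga
mmu-let-7g-5p: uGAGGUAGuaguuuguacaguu
The seed AAGUGCU occurred in 5 of the mature miRNAs listed beside these peaks, 2 from the Mir302 cluster and 3 from the Mir290 cluster. Some mature miRNAs were missing from the list, which held only the 5p form for Mir302a and Mir292. The seed counts therefore cover the listed forms only and can be too low for the clusters. Seed AUUGCAC was shared by miR-363-3p, miR-367-3p and miR-92a-3p, which come from 2 clusters, and AAAGUGC by miR-106a-5p and miR-20b-5p.

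The central 300 bp of 5 peaks are shown from the plus strand of mm9: the 3 with the highest enrichment, and those beside Mir302b and Mir9-2, the highest among the known miRNA genes outside the gene Klf9. This is the C57BL/6J reference sequence, and the cells are 129/Ola. Capitals mark matches to the letters ACAAAG (a SOX motif) or TAATGG (a NANOG motif) on either strand, read as CTTTGT or CCATTA where the match is on the minus strand.
Gm6116, chr5:75349045-75349344: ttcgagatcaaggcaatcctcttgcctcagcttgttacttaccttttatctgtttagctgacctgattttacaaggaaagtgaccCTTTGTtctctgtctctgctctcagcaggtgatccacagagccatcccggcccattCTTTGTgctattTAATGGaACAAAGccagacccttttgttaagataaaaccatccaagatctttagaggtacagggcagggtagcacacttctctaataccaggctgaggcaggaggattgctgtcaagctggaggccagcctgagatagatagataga
A430010J10Rik, chr6:67061524-67061823: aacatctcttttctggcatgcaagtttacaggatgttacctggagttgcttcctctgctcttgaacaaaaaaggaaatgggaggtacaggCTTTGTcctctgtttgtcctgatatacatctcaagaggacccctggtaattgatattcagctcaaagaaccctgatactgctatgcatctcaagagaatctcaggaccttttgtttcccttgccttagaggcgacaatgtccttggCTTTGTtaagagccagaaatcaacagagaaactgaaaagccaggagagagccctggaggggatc
AL807379.1, chr4:16052811-16053110: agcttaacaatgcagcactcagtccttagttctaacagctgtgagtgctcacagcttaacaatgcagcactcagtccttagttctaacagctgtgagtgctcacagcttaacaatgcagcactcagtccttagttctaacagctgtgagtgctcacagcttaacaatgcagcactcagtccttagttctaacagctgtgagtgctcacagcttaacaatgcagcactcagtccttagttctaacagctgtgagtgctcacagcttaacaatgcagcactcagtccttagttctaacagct
Mir302b, chr3:127247585-127247884: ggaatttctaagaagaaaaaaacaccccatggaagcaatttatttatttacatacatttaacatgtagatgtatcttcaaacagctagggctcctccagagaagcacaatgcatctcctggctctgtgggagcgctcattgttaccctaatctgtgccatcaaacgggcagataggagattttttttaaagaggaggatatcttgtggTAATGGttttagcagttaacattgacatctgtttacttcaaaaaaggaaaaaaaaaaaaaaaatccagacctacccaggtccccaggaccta
Mir9-2, chr13:83880395-83880694: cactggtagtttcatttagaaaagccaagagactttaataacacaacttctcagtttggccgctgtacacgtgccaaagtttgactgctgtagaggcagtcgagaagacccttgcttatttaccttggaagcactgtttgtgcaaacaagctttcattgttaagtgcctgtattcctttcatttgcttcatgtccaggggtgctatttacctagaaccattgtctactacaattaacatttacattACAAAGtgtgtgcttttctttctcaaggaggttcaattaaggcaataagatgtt
The Gm6116 window held 3 SOX matches and 1 NANOG match, the last 2 of them separated by a single base. The A430010J10Rik window held 2 SOX matches, the Mir9-2 window 1 SOX match and the Mir302b window 1 NANOG match. The window named for AL807379.1 held no match to any of the 6 motifs searched. It was a tandem repeat, in which each base that could be compared was identical to the base 52 positions on.

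By the class of the nearest RNA start, 72 peaks belonged to lincRNAs, 62 to antisense genes, 74 to processed_transcript genes and 79 to miRNAs. They fell at 265 RNA genes, of which 244 had 1 of these peaks, 20 had 2 and 1 had 3. The gene with 3 was Mir1192, inside an intron of Klf9, a Krüppel-like transcription factor gene. Genes with such a peak made up 5.26% of the 1273 annotated lincRNAs, 4.21% of 1354 antisense genes, 5.58% of 1218 processed_transcript genes and 4.63% of 1577 miRNA genes. Starts more than 5 kb from every coding start numbered 573 for lincRNAs, 934 for antisense, 1054 for processed_transcript and 1331 for miRNA genes. The rule drops peaks near coding starts, so RNA genes starting there have less room for one, and these shares do not rank the classes. The annotation holds 0 genes of the type antisense, so the antisense class here is the processed_transcript genes that have an antisense transcript. Of the 73 miRNA genes nearest to a peak, 19 matched a miRNA gene in RefSeq by symbol, and most others were predicted hairpins named after a genomic clone, so the miRNA class is largely one of predicted loci.

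These peaks were 2.15% of the series-level list (95% exact Clopper-Pearson interval 1.91% to 2.41%), while 1.35% of the assembled genome met the same distance rule, a ratio of 1.60 (1.42 to 1.79). For peaks within 5 kb of a coding start the ratio was 1.48 (1.41 to 1.55), from 11.2% of peaks and 7.56% of the genome. Genome length was the full length of the chromosome sequences, with gaps and repeats where reads cannot be placed left in. What this does to the ratios was not tested. Intervals here and below cover counting error only, and the RNA genes share chromosomes and neighbourhoods. Chromosomes 2, 4 and 11 held 110 of the 287 peaks, which is 38.3%, against 19.2% of all series-level peaks. The same 3 chromosomes hold 35.6% of the annotated RNA genes of these types, and 2.81% of their length met the rule, against 1.04% of all other chromosomes. The ratio of peaks to length was 1.53 on chromosomes 2, 4 and 11 and 1.58 on the others, so the ratios of these 2 sets of chromosomes were alike in size.

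Enrichment, the authors' own ratio for each peak and used here only within a list, was in the same range as for the list as a whole. Its median was 7.05 near noncoding RNA starts (quartiles 5.37 and 9.65, lowest 3.52, highest 40.35), against 7.38 for all series-level peaks (quartiles 5.54 and 11.41, lowest 2.44, highest 51.68). The 95% order-statistic interval of the median, 6.54 to 7.55, includes the value for all peaks. Among classes the median was 7.55 for processed_transcript genes (6.77 to 8.39), 7.05 for miRNAs (5.87 to 8.56), 6.63 for antisense genes (5.87 to 8.05) and 6.56 for lincRNAs (5.87 to 8.56). These intervals overlap one another. Of peaks near RNA starts, 65 reached an enrichment of 10, which is 22.6% (17.9% to 27.9%), against 31.5% of all peaks (30.7% to 32.3%). An enrichment of 20 was reached by 20 (6.97%, 4.31% to 10.6%), against 8.03% of all, and 30 by 4 (1.39%, 0.381% to 3.53%), against 2.48% of all. The interval near RNA starts leaves out the share of all peaks at 10 and includes it at 20 and 30.

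**Figure D1:**
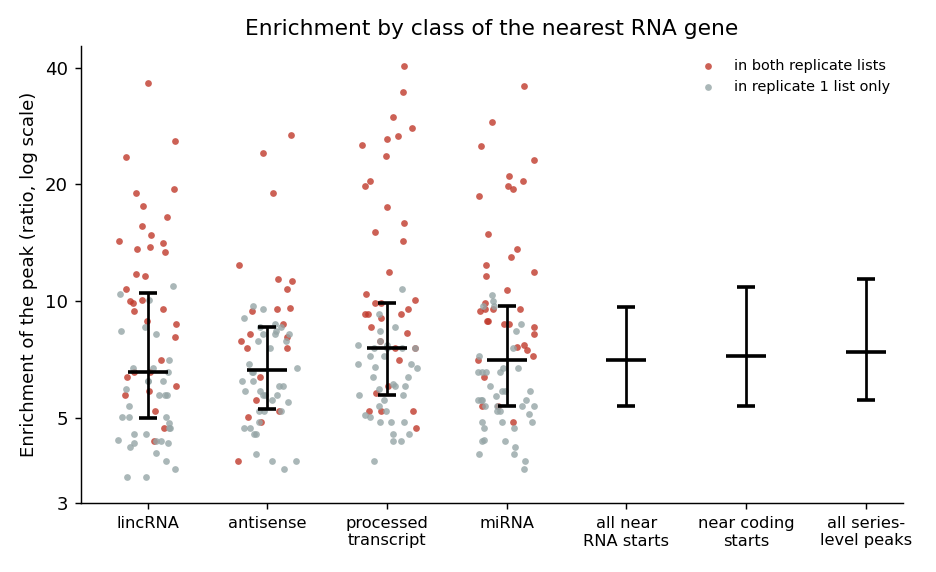
Enrichment (authors' ratio, log axis) of each peak near a noncoding RNA start, by class of the nearest RNA gene. Points are peaks, coloured by presence in the replicate lists, and horizontal marks with bars are the median and quartiles, also for all 287 peaks together, for the 1494 peaks near coding starts and for all 13341 peaks. The medians lie between 6.56 and 7.55, and the points above about 11 are in both replicate lists.

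The 15 peaks with the highest enrichment lay between 23.66 and 40.35 and were in both replicate lists. By class they were 8 processed_transcript, 3 miRNA, 2 lincRNA and 2 antisense, and 4 of them were inside a protein-coding gene. The highest was at Gm6116, a processed_transcript gene on chromosome 5 with no known function given in the files, at chr5:75348635-75349755. Its enrichment was 40.35 in the series-level list, 81.36 in the replicate 1 list and 38.52 in the replicate 2 list, rank 81 of all series-level peaks. The midpoint lay 3976 bp downstream of the start, inside the gene body, and 91.6 kb from Chic2, the nearest coding start.

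Next came A430010J10Rik, a lincRNA gene on chromosome 6, with 36.58 in the series-level list, 74.16 in replicate 1 and 37.25 in replicate 2. This peak was 3993 bp upstream of the start and 74.2 kb from Gadd45a, a gene induced by DNA damage. A weaker peak 2070 bp upstream of the same RNA start had 4.53 in the series-level list and 7.48 in replicate 1, with no replicate 2 peak. The 2 peaks of this gene therefore differed in both strength and presence.

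The third, at chr4:16052033-16053889, was 3861 bp downstream of AL807379.1, a predicted miRNA gene, in an intron of Ripk2, which encodes a kinase of innate immune signalling. It had 35.89 in the series-level list, 74.42 in replicate 1 and 44.33 in replicate 2, and its width of 1857 bp is above the upper quartile of these peaks, 945 bp. Its centre is the tandem repeat printed above. Of the 287 central windows this was the only 1 that matched itself in at least 90% of positions at some shift between 10 and 150 bases, and 13 of all 13341 windows did. Among those 13 windows it had the highest enrichment, their median being 7.89. The number of repeat copies in the 129/Ola cells and how reads were assigned to the copies are not known here, and their part in the value was not tested.

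Other peaks of the top 15 lay at uncharacterised transcripts far from coding starts. The peak 3353 bp upstream of 4930554G24Rik had 34.57, 70.25 and 22.92 in the series-level, replicate 1 and replicate 2 lists, and the nearest coding start was 1534.32 kb away. At 9330185C12Rik, a lincRNA gene, the values were 25.84, 50.74 and 23.88, with the nearest coding start, Cntnap5a, 1725.24 kb away. At 1700121N20Rik they were 28.02, 55.62 and 18.63, with the midpoint 436 bp inside the gene and Vrk1 437 kb away. In each of these 3 cases no coding start was near.

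The peak in the body of Gm12510, 1378 bp downstream of its start, had 29.87 in the series-level list, 61.15 in replicate 1 and 21.49 in replicate 2. It is 68.0 kb from the start of Klf4, a reprogramming factor and naive pluripotency gene. At Gm11250 the peak was 647 bp upstream of an antisense start and within an exon of Tle1, a Groucho-family corepressor, with 26.85, 53.67 and 16.72 in the 3 lists. A second peak in Tle1, 1976 bp downstream of the same antisense start, had 3.86, 5.85 and 5.25, so the same RNA gene had a peak near the top and the lowest of the 129 peaks present in both replicates.

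The remaining peaks of the top 15 were at AL627205.1 (29.01), Gm12088 (26.68), Gm11916 (26.18), Gm12681 (25.34), Mir1192 (25.17), Gm16220 (24.16) and Gm12860 (23.66). At Gm12681 the midpoint was 111 bp from the RNA start, the closest of the 15, and at Gm12860 it was 4755 bp upstream. Beside Mir1192 the 3 peaks had 25.17, 5.20 and 4.70 in the series-level list, and only the first was in the replicate 2 list, at 41.07. The Mir1192 peaks were 12.67, 11.02 and 6.25 kb from the Klf9 start, so they are as much a feature of this coding gene as of the miRNA. The next lincRNA, Gm17294, in an intron of Dip2c, had 23.49 and the next antisense gene, Gm15701, in an intron of Rasa4, had 18.96.

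The Mir302 cluster, 5 miRNA genes in an intron of Larp7 on chromosome 3, had 1 peak at its head. Its enrichment was 20.98 in the series-level list, 40.66 in replicate 1 and 18.15 in replicate 2. The midpoint was 411 bp upstream of Mir302b, the first gene of the cluster, and 8.53 kb from the Larp7 start. All 5 miRNA starts were within 1 kb of the same midpoint, so the 5 genes share 1 measurement.

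The Mir290 cluster, 7 miRNA genes on chromosome 7, had 2 weak peaks by the same rule. They had 5.56 and 5.37 in the series-level list and 10.09 and 10.73 in replicate 1, and neither was in the replicate 2 list. Stronger peaks of the locus were outside the 5 kb window. Between 12.5 and 11.4 kb upstream of Mir290 a peak had 20.87 in the series-level list, 42.63 in replicate 1 and 14.70 in replicate 2. Another between 9.15 and 10.01 kb downstream had 8.05, 15.61 and 5.73. A further peak, between 6.78 and 5.99 kb upstream, had 7.37 and 12.98 in the series-level and replicate 1 lists and no replicate 2 peak. Of these 3 flanking peaks, the 2 farther ones were in both replicate lists.

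**Figure D2:**
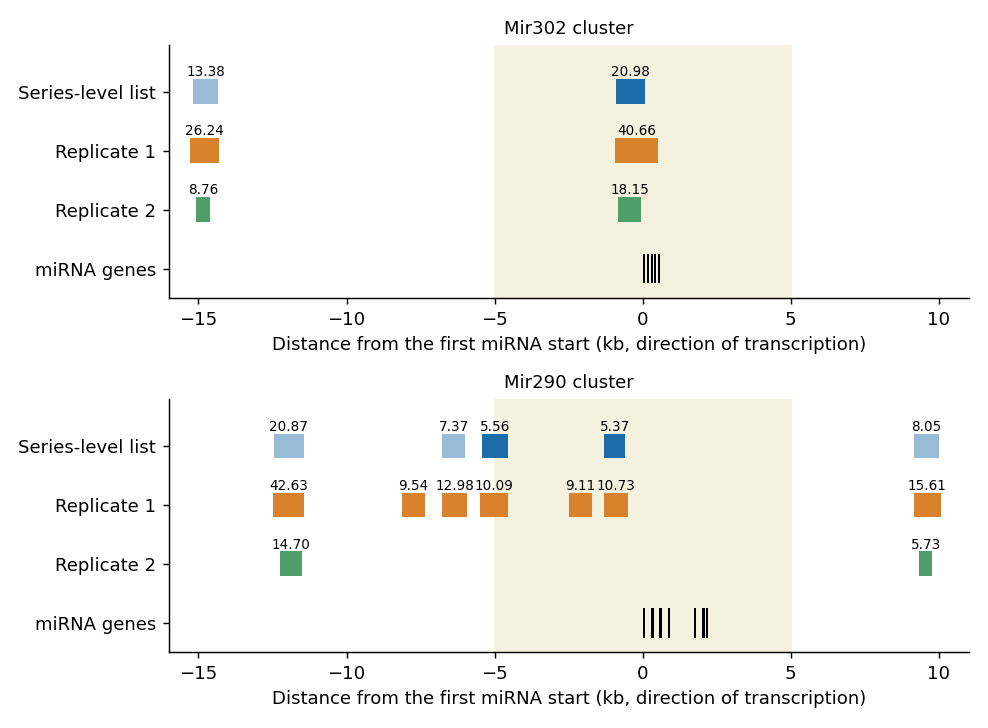
Peaks around the Mir302 and Mir290 clusters, in kb from the first miRNA start along the direction of transcription. Rows are the series-level list, the replicate lists and the miRNA genes, numbers are the authors' enrichment within each list, the shaded band is the 5 kb window of the first gene, and pale series-level peaks have midpoints outside it. The Mir302 peak (20.98) is in all 3 lists, and the strongest Mir290 cluster peak (20.87) lies about 12 kb upstream.

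Among miRNAs of differentiated cells, the peak 2134 bp downstream of Mir9-2 had 23.16 in the series-level list, 48.14 in replicate 1 and 14.81 in replicate 2, with the nearest coding start, Mef2c, 238 kb away. The peak 1869 bp upstream of Mirlet7g, in an intron of Wdr82 (a subunit of histone H3 lysine methyltransferase complexes), had 11.91, 23.74 and 12.42. At Mir124a-1 the peak 558 bp upstream had 8.22, 14.64 and 9.55, and further peaks in the same window had 5.37 and 4.03 and were absent from the replicate 2 list. Of these 3 miRNA loci, each had a peak in both replicate lists. They were described because they had a peak, and the other let-7 genes looked at and Mir124a-3 had none within 5 kb. Among other RefSeq miRNA genes with a peak, the series-level enrichment was 19.8 at Mir669h, in an intron of Sfmbt2, and 10.40 at Mir760. It was 9.56 at both Mir128-2 and Mir692-1, 8.89 at Mir346 and 8.73 at Mir483. Of the peaks at these genes, only that at Mir760 was absent from the replicate 2 list. The replicate 2 q-values at Mir483 (0.1457) and Mir692-1 (0.1328) were above 0.05, and those at Mir669h, Mir128-2 and Mir346 were below it.

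A list of 83 records of well-known RNA genes (79 symbols) was drawn up in 5 groups, and 20 records had one of these peaks within 5 kb of the start, which is 24.1%. RNAs named for the list but without a record of these types under that symbol, such as Kcnq1ot1 and Hotair, are not counted. Over all 5422 RNA gene records of these types the share was 5.42%, and with peaks near coding starts counted too it was 7.29%. The records of a cluster share peaks, so the 20 records rest on 12 peaks, 6 of them in both replicate lists. In the group of pluripotency and cell state RNAs 15 of 27 records had a peak, in the nuclear group 2 of 2, among other miRNA families 3 of 41, among imprinted and dosage RNAs 0 of 8, and among antisense RNAs of homeobox genes 0 of 5. The 3 miRNA family records are Mir9-2, Mir124a-1 and Mirlet7g. Without the Mir302 and Mir290 cluster records the pluripotency group keeps only Sox2ot, Mir106a and Mir363.

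Sox2ot, a lincRNA gene that spans the pluripotency gene Sox2, had a peak 1291 bp upstream of its start with 5.87 in the series-level list, 10.73 in replicate 1 and 6.21 in replicate 2. Its q-value in replicate 2 was 0.2527, above 0.05. The peak beside Kis2 and the miR-106a to miR-363 cluster on the X chromosome had 4.36 in the series-level list and 9.11 in replicate 1 only. Both values were below the median of all peaks near RNA starts.

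Of the nuclear RNAs, Neat1 (the scaffold RNA of paraspeckles) had a peak 3934 bp upstream with 9.40 in the series-level list, 18.54 in replicate 1 and 6.21 in replicate 2. This peak was 904 bp downstream of the start of the antisense gene Gm9783, its nearest RNA start. Malat1, the nuclear speckle RNA, had a peak 3594 bp upstream with 5.20 in the series-level list and 9.43 in replicate 1 only. The X-inactivation RNA Xist had no peak in the window. Its nearest series-level peak, with 29.03, was 10.7 kb downstream of its start, inside the gene bodies of Xist and of Tsix. For the miRNA gene Mir296, whose product is known to act on messenger RNAs of pluripotency factors, the nearest peak was just outside the window. That peak (18.29) was 5.62 kb from the start.

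Several further genes, found by current RefSeq symbol after their values were seen, are marked as pluripotency-associated transcripts (Platr) or as expressed in embryonic stem cells (Lncenc1). Platr genes and Lncenc1 were named for the list of well-known RNAs. The annotation holds those described here under other symbols, so the 27 pluripotency and cell state records leave them out. Platr22 (annotated as Gm16880) had peaks 991 and 23 bp upstream of its start with 6.04 and 5.20 in the series-level list, both also in the replicate 2 list. Lncenc1 (Gm11019) had 6.57 and 4.29, of which only the first was in both replicate lists. Platr7 (C330046G13Rik) had 6.54 and was in both, and Platr9 (2410114N07Rik) had 4.70 and was in replicate 1 only. The replicate 2 q-value was 0.0987 at Platr7, above 0.05, and 0.0261 at the first Lncenc1 peak. All 6 peaks were below the median of the series-level list.

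Others, chosen after their values were seen, lie beside genes of the pluripotency network. Gm16201, a lincRNA 6.45 kb from the start of Utf1 (a chromatin factor of undifferentiated cells), had 13.42 in the series-level list, 25.04 in replicate 1 and 15.76 in replicate 2, with the midpoint 161 bp upstream. Gm16065 (Tbx3os2), 24.5 kb from Tbx3, had 10.74, 19.84 and 9.07, and Gm14261, in an intron of Sall4, had 6.54 and 11.71 with no replicate 2 peak. The widest of all series-level peaks, 4476 bp, was 3259 bp upstream of Gm13150 and had a modest enrichment of 5.79, with 10.99 in replicate 1 and 7.41 in replicate 2.

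All 287 peaks overlapped a replicate 1 peak by at least 1 bp, as did 99.63% of all series-level peaks. Of the 287, 129 also overlapped a replicate 2 peak, which is 44.95% (39.1% to 50.9%). The share in both lists among all series-level peaks was 46.8%, close to it. The replicate lists differ in length, 22082 peaks for replicate 1 and 6618 for replicate 2, and the series-level list was made from these replicates, so the sharing is partly built in. By class, 35 of 72 lincRNA peaks (48.6%), 22 of 62 antisense peaks (35.5%), 36 of 74 processed_transcript peaks (48.6%) and 36 of 79 miRNA peaks (45.6%) were in both. The interval for the antisense class, 23.7% to 48.7%, includes the share of all peaks.

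Peaks in both lists had a median series-level enrichment of 9.56 (3.86 to 40.35, lowest and highest), and those in replicate 1 only had 5.71 (3.52 to 10.91). In the replicate 1 list the same 2 sets had medians of 19.19 and 10.73. The series-level list was divided into 4 bands of like size by enrichment. In the lowest band 15 of 85 peaks were in both (17.6%), against 9.49% of all peaks of that band. In the second band it was 14 of 65 (21.5%), against 24.2%, in the third 50 of 87 (57.5%), against 58.9%, and in the highest 50 of 50, against 96.0%. The interval for the lowest band, 10.2% to 27.4%, does not reach down to the value for all peaks, and those of the other 3 bands include it. Presence in both lists followed enrichment near RNA starts as it did in the list as a whole.

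**Figure D3:**
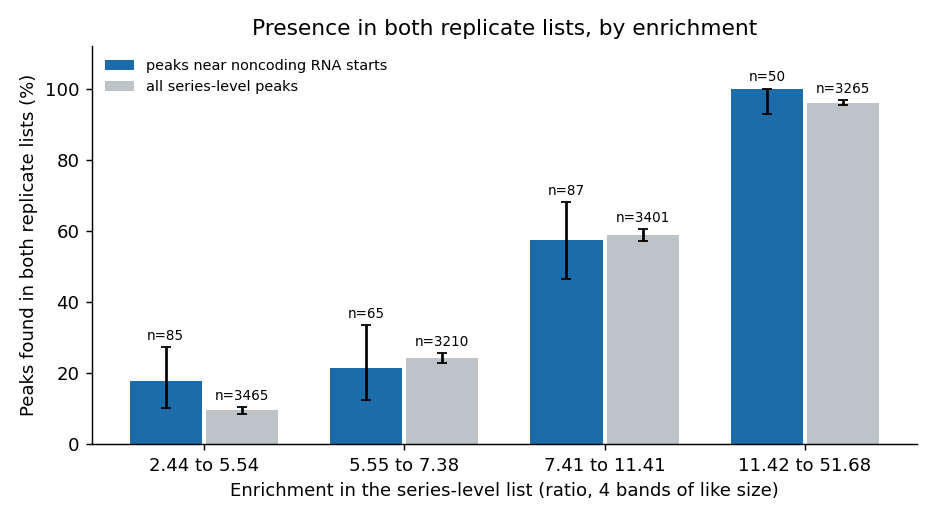
Share of peaks found in both replicate lists (%) in 4 bands of the series-level list by enrichment, for peaks near noncoding RNA starts and for all series-level peaks. Bars are shares, error bars 95% Clopper-Pearson intervals, and n the number of peaks. The share near RNA starts is 17.6% in the lowest band and 100% in the highest, where 50 of 50 peaks are in both lists.

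The replicate lists contain weaker peaks as well. A q-value of at most 0.05 was held by the replicate 1 peak of 219 of the 287 peaks near RNA starts (76.3%), against 77.5% of all peaks, and by the replicate 2 peak of 97 of 129 (75.2%), against 73.2% of all. When the rule was applied to the replicate lists themselves, 489 replicate 1 peaks (2.21%) and 135 replicate 2 peaks (2.04%) met it. Of these, 206 and 7 did not overlap a series-level peak. The same counts over the whole replicate lists are not given here, so the 2 numbers are not read as particular to RNA starts.

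Peaks lay on both sides of the RNA starts, 150 upstream and 137 downstream. Within 1 kb of the start were 64 midpoints, between 1 and 3 kb 116, and beyond 3 kb 107, with a median distance of 2315 bp. In 41 cases the peak region covered the start itself, and in 80 the midpoint was inside the RNA gene. The bin just upstream of the start, up to 1 kb, held 40 peaks, more than any other 1 kb bin, and the bin just downstream held 24. Of lincRNA peaks 44 of 72 were upstream (61.1%, 48.9% to 72.4%), against 36 of 79 miRNA peaks (45.6%, 34.3% to 57.2%). The median enrichment per 1 kb bin was between 5.88 and 8.23 and did not follow the distance.

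**Figure D4:**
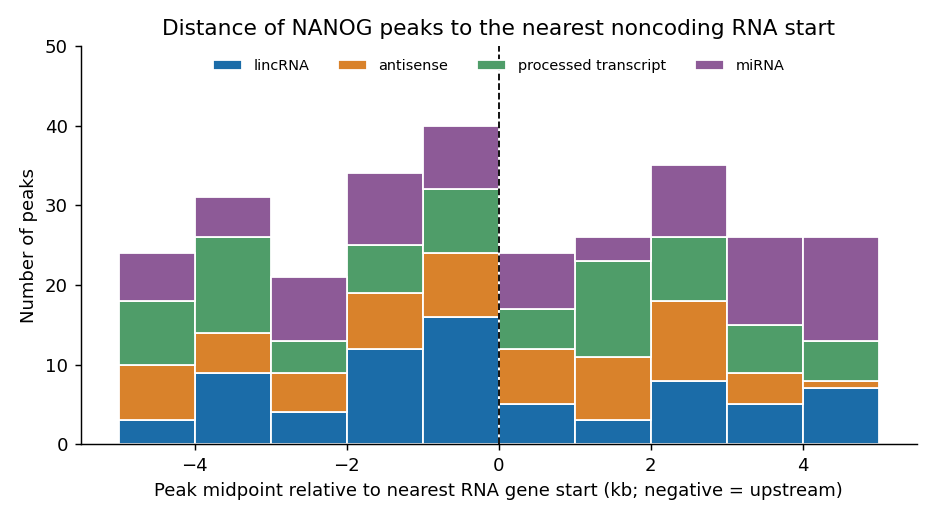
Number of peaks per 1 kb bin of signed distance from the nearest noncoding RNA start (negative is upstream), stacked by RNA class. Bins hold between 21 and 40 peaks, and the highest bin is the 1 kb upstream of the start, where 16 lincRNA peaks lie.

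At the edges of the rule the values were unremarkable. Just inside the 5 kb limit were a peak at 5000 bp from Mir290 (5.56) and one at 4978 bp from Gm11634 (4.53), and just outside were peaks at 5015 bp from 6030455H03Rik (5.03) and 5030 bp from 4930444M15Rik (8.05). On the coding side, peaks kept at 5048 bp from Cdk17 (5.87) and 5185 bp from Sall4 (6.54) stood beside peaks dropped at 4801 bp from Sox21 (6.88) and 4803 bp from Hoxb4 (9.90).

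Coding genes held or neighboured many of these peaks. Midpoints lay in an intron of a coding gene in 109 cases (37.98%, against 39.7% of all peaks), in an exon in 12 (4.18%, against 2.49%) and outside coding genes in 166 (57.8%, against 57.8%). Introns held 56.5% of antisense peaks and 51.9% of miRNA peaks, while 81.1% of processed_transcript peaks and 68.1% of lincRNA peaks were outside coding genes. The nearest coding start was at a median of 33.8 kb (quartiles 17.0 and 70.5 kb), against 50.7 kb for all series-level peaks over 5 kb from a coding start. It was under 10 kb for 34 peaks and over 100 kb for 48. A peak near an RNA start can therefore also be described as a peak of the coding gene around or beside it, and the data do not assign it to either.

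The central 300 bp had a median GC content of 47.3%, against 45.7% for all series-level peaks and 47.0% for peaks near coding starts. The mean number of CpG dinucleotides was 3.79 near RNA starts, 4.47 near coding starts and 3.05 in all peaks. Median peak width was 841 bp, against 853 bp. The mean CpG count near RNA starts was thus between the other 2, while windows with no CpG were 6.97% near RNA starts, 9.91% near coding starts and 13.2% of all.

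Each of 6 motifs was searched by its letters on both strands of these windows. The SOX letters ACAAAG were in 48.1% of windows near RNA starts (42.2% to 54.0%), against 46.2% of all series-level windows. The NANOG letters TAATGG were in 15.7% (11.7% to 20.4%), against 16.1%, and the ESRRB letters AAGGTCA in 16.4% (12.3% to 21.2%), against 16.9%. The OCT octamer ATGCAAAT was in 3.83% (1.93% to 6.75%), against 5.6%, the SOX-OCT core TTGTNATGC in 4.18% (2.18% to 7.19%), against 6.75%, and the KLF letters GGGTGTGG in 6.62% (4.03% to 10.1%), against 4.17%. The SOX-OCT core can overlap SOX and octamer matches. For each of the 6 motifs the interval near RNA starts includes the share of all peaks, and a match is a description of the letters and not a binding site.

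**Figure D5:**
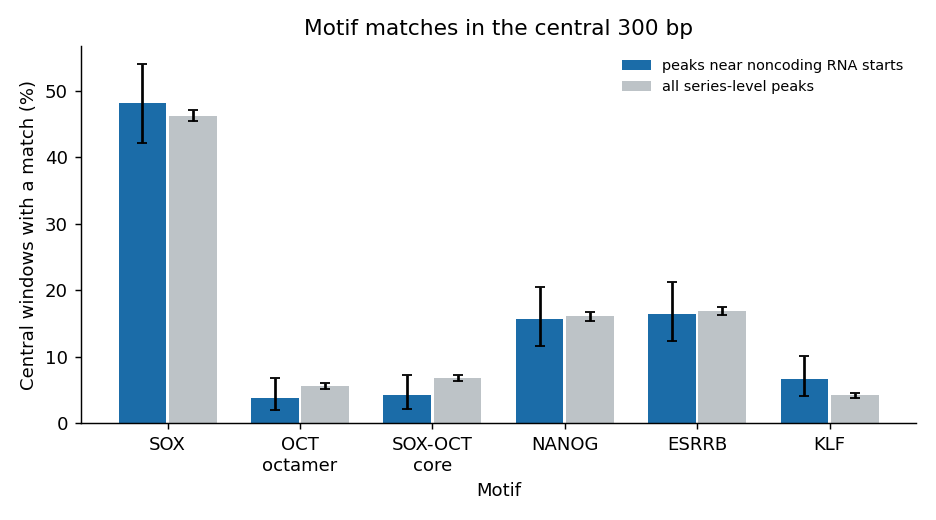
Share of central 300 bp windows with at least 1 match to each motif (%), for peaks near noncoding RNA starts and for all series-level peaks. Bars are shares and error bars 95% Clopper-Pearson intervals, and each interval near RNA starts includes the share of all peaks.

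The authors' mm10 sets, filtered by their reproducibility procedure (irreproducible discovery rate, IDR), were compared by gene symbol only. Of the 265 RNA genes, 76 matched a noncoding RefSeq gene with a start on GRCm38. An optimal-set summit lay within 5 kb of that start for 64 of the 76 (84.2%, 74.0% to 91.6%) and a conservative-set summit for 42 (55.3%, 43.4% to 66.7%). Over all 1842 RNA gene records matched in the same way the shares were 9.61% and 5.75%. The mm10 sets come from the same 2 replicates and are no independent experiment.

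Genes whose mm9 peak was in both replicate lists had an optimal summit in 35 of 35 cases and a conservative one in 30 of 35. Those with a peak in replicate 1 only had an optimal summit in 29 of 41 cases (70.7%) and a conservative one in 12 of 41 (29.3%). Any summit within 5 kb of the start was counted, so these shares are of genes and do not show that the same peak was found again. At Gm13257, for example, the mm9 peak was 3380 bp from the start and the optimal summit 1279 bp. Signals in the optimal set, on a scale that is not stated, were 387 at Gm6116, 269 at 4930554G24Rik, 204 at Mir9-2, 195 at Mir302b and 96.0 at Mirlet7g, against a median of 40.2 for the set. At Mir290 the signal was 39.5 and the summit was 1036 bp from the start, and at Malat1 it was 28.3. At some genes the signal and the mm9 enrichment may belong to different peaks, as at 2 genes chosen after their values were seen. At Gm14261 the signal was 159 at 1395 bp from the start, and the mm9 enrichment 6.54 at 3385 bp. At Gm11496 the signal was 20.2 at 3640 bp, and the mm9 enrichment 12.42 at 2604 bp. These pairs therefore do not compare signal and enrichment at the same site.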

How the data were processed

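Peak lists of NANOG ChIP-seq from 2 biological replicates were used as deposited. Per the file headers and accompanying text, the mm9 lists are broad-peak regions, 1 per replicate and 1 for the series. Their columns, read by the order of that format, hold the authors' enrichment ratio, relative to what is not said, with the authors' p-value as −log10 and a deposited q-value that was read as untransformed. How the authors combined the replicates is not stated. The deposited mm10 sets give the authors' signal value and summit after IDR filtering. The aligner, the peak caller and their versions are not given in the sources used here, nor is read depth.

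Computation used samtools 1.23.1 and Python 3.11.15 with pysam 0.24.0, pandas 2.3.3, NumPy 2.4.6, matplotlib 3.10.9 and SciPy 1.17.1. Starts came from the gene records of an mm9 GENCODE annotation with 5422 RNA genes of the 4 classes and 22380 protein-coding genes, and each peak was represented by its midpoint. A peak counted as present in a replicate when it shared at least 1 bp with a peak of that list. Windows were 150 bp to each side of the midpoint. Coordinates are 1-based on mm9. mm10 summits were compared by gene symbol, after matching to noncoding RefSeq genes, and no coordinates were converted. Shares have 95% Clopper-Pearson intervals. No test was made, since there is 1 group and peaks are not replicates. The replicates are labelled as biological, and nothing more on their separate origin is given.

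The text names the 15 peaks with the highest enrichment, the 3 highest of each class, and peaks beside genes of a list of well-known RNAs. The peaks, this list and the alternatives were chosen with earlier results of these data known. Genes outside the rule are marked as such. The rule and motif search were tested on simulated data. All columns of sample values in the mm9 lists were mapped to their samples, so 0 were set aside. The relaxed mm10 lists were not used. Alternatives were other distances, starts of every transcript, fewer RNA classes, a stricter q-value, any base of the region, a larger overlap and each replicate alone.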

Additional observations from a re-analysis of the deposited data

Results flagged for a closer look

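Outside the series-level list, 4 replicate 1 peaks met the same distance rule and overlapped a replicate 2 peak. They belong to the 206 replicate 1 peaks near RNA starts that overlapped no series-level peak, and differ from the rest of them by the replicate 2 peak. How often this occurs among all replicate 1 peaks outside the series-level list is not given here, so it is not read as particular to RNA starts. The nearest RNA genes are 1700007P06Rik (enrichment 10.08 in replicate 1 and 4.78 in replicate 2), B130011K05Rik (9.07 and 7.08), AC156026.1 (6.83 and 5.73) and Gm14963 (9.76 and 8.12). Their q-values were between 0.1461 and 0.2779 in replicate 1 and between 0.1388 and 0.2291 in replicate 2, all above 0.05.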

How the results depend on the processing

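The count of 287 peaks moved most with a series-level q-value of at most 0.001, to 71. It was 133 with windows of 2 kb and 494 with windows of 10 kb around both kinds of start, 138 with lincRNA and antisense genes only, and between 135 and 489 when either replicate was left out and the other replicate's own list was used. It stayed within 1.5 times of 287 with the starts of every transcript (276), with any base of the region (301), and with coding starts by transcript and RNA starts by gene (256), an alternative added after seeing the data. The share in both replicate lists, 44.95%, was 92.96% at the stricter q-value (93.2% of all peaks) and 35.89% when an overlap of at least 50% was asked for (38.6% of all peaks). The median enrichment of 7.05 was 14.26 at the stricter q-value (15.1 for all peaks) and between 8.6 and 9.27 when a replicate was left out, on the scale of the other replicate's list. The stricter q-value keeps the stronger peaks by construction, and for the other shifts the cause was not tested. Leaving out a replicate gives no share in both lists. No paired analysis was possible because there is only 1 group. Unknown read depth limits what absence from the shorter replicate 2 list means, the annotation decides which starts exist, and most miRNA loci are predictions.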
